A study of Homo sapiens with 5 samples.

Results

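The mRNAs described here encode parts of the translation machinery: the elongation factor EEF2, the ribosome scaffold RACK1, the initiation factor EIF4B, the large-subunit proteins RPL13, RPLP2 and RPL37A, and the small-subunit proteins RPS3 and RPS14. They were followed through lists of RNA regions recovered by CLIP-Seq from HEK-293, a line derived from human embryonic kidney. A region was taken when the deposited annotation named 1 of these 8 genes on the same strand. This gave 22 of the 3147 regions in all lists. Of these, 17 were annotated as exons of a protein-coding gene, 4 overlapped a small nucleolar RNA (snoRNA) inside an intron of such a gene, and 1 was intronic. The genes had been chosen on these same lists, so their presence and read counts are given as a description, with no test.

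CLIP-Seq fixes RNA to the protein it touches with ultraviolet light, trims it with RNase and sequences what is pulled down with that protein. The study had 5 libraries from 2 experiments. Experiment 1, with RNase I at 0.04 units/ml, held cells transfected with GFP-(GR)50, in which GFP carries 50 glycine-arginine repeats (replicate 1), and cells transfected with GFP alone. Experiment 2, with RNase I at 0.02 units/ml, held GFP-(GR)50 again (replicate 2), GFP-(GP)10, carrying 10 glycine-proline repeats, and untransfected cells. All libraries came from 1 cell line, transfection was transient with a lipid reagent, and every library, the untransfected included, was pulled down on anti-GFP beads. Untransfected cells thus had no bait. The region lists cover bound RNA alone, so the identity of the cell line could not be checked on marker genes. Poly-GR is a dipeptide-repeat protein translated from the expanded C9ORF72 repeat of ALS and FTD.

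The mRNAs of ribosomal proteins and of several translation factors are among the most abundant in growing cells. Many of them begin with a C followed by an unbroken run of pyrimidines, the 5′ terminal oligopyrimidine (TOP) tract, through which mTOR and the RNA-binding protein LARP1 adjust their translation to growth conditions. Several also carry snoRNAs, guides of rRNA modification, in their introns, so that a single transcript yields a protein message and a guide RNA.

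The annotated starts of the 8 genes are shown because this tract is a feature they share. It was not used to choose the regions, but the genes belong to a class in which it is common. Its presence is thus no finding of these lists. Each line gives 10 bases before and 20 bases after a transcript start in RefSeq (GRCh38.p14), 5′ to 3′ on the strand of the gene, with capitals for the run of C and T that begins at the first transcribed base. RPL13 has 3 annotated starts.
EEF2 (chr19:3985444-3985473, minus strand): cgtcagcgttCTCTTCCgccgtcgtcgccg
RACK1 (chr5:181243887-181243916, minus strand): gcttttctctCTCTCTTTCactgcaaggcg
EIF4B (chr12:53006446-53006475, plus strand): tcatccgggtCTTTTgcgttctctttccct
RPL13, start 1 (chr16:89560647-89560676, plus strand): tgctatcatcCCagagtgcattgcggggcc
RPL13, start 2 (chr16:89560672-89560701, plus strand): gggccgcttcCTTTCCgctcggctgttttc
RPL13, start 3 (chr16:89560701-89560730, plus strand): cctgcgcaggaggtgagggagactgggtcc
RPLP2 (chr11:809957-809986, plus strand): tcggcgccttCCTTTTCCTCCCTgtcgcca
RPL37A (chr2:216498834-216498863, plus strand): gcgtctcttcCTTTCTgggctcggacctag
RPS3 (chr11:75399508-75399537, plus strand): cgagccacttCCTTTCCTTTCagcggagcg
RPS14 (chr5:150449720-150449749, minus strand): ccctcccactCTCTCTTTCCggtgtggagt

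A C at the first base followed by at least 4 further bases that are each C or T was found at 8 of these 10 starts, and at 1 start or more of every gene. The longest run, 13 bases, was that of RPLP2, and the shortest that counted, 5 bases, that of EIF4B. Of all 35116 annotated starts 4.07% begin this way, and 988 of the 15843 protein-coding genes with a start (6.24%) have such a start. Among the 79 cytosolic ribosomal protein genes, 63 had a start in the table and 47 of these (74.6%) a start of this kind. Of the other 84 gene names with an exonic region in GFP-(GR)50 replicate 2, 60 had a start in the table and 7 (11.7%) a start of this kind. For the names with an exonic region in untransfected cells it was 4 of 38 (10.5%). Only the sense strand at the annotated first base was read, and a match describes these letters alone.

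Each list gives, per region, a count of uniquely mapping reads and a listed count that adds multimapping reads scaled by the authors. No region had fewer than 5 listed reads, so a gene without a region is not a gene with 0 reads. Listed reads summed to 56588 for GFP-(GR)50 replicate 1 beside 30598 for its GFP control. In experiment 2 they summed to 134222 for GFP-(GR)50 replicate 2, 22519 for untransfected cells and 7468 for GFP-(GP)10. Ribosomal RNA (rRNA) was counted as every region so annotated plus unannotated regions of an extra contig that matched an annotated rRNA region in width and reads. So counted, it took between 54.2% (untransfected cells) and 97.1% (GFP-(GR)50 replicate 1) of listed reads, and 94.8% in GFP-(GR)50 replicate 2. Annotated rRNA alone took 43.4% in untransfected cells and 75.6% in GFP-(GR)50 replicate 2, where 32734 reads lay outside it. Outside rRNA, experiment 1 had 1634 reads for GFP-(GR)50 replicate 1 and 11025 for GFP. Experiment 2 had 6995 for GFP-(GR)50 replicate 2, 10305 for untransfected cells and 2061 for GFP-(GP)10. Shares below are of these reads unless said otherwise, with exact Clopper-Pearson 95% intervals that cover counting error of listed reads only. These intervals take unlisted reads as 0. Each control was a single library, so no difference below was set against a spread between control cultures.

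Exonic regions of these genes were listed in GFP and in GFP-(GR)50 replicate 2 and in no other library. GFP-(GR)50 replicate 2 held 14 exonic regions on 5 genes, EEF2, RACK1, RPL13, RPLP2 and RPS3, with 99.21 listed reads. GFP held 3 exonic regions on EEF2, EIF4B and RPS14, with 16 listed reads. GFP-(GR)50 replicate 1, untransfected cells and GFP-(GP)10 listed none. EEF2 was the single gene with an exonic region in more than 1 list, and RPL37A had an exonic region in none. The 2 GFP-(GR)50 libraries thus had no exonic region of these genes in common. Of all 159 names with an exonic region in any list, 14 (8.81%) had one in 2 or more lists. Of these genes it was 1 of the 7 listed.

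**Figure D1:**
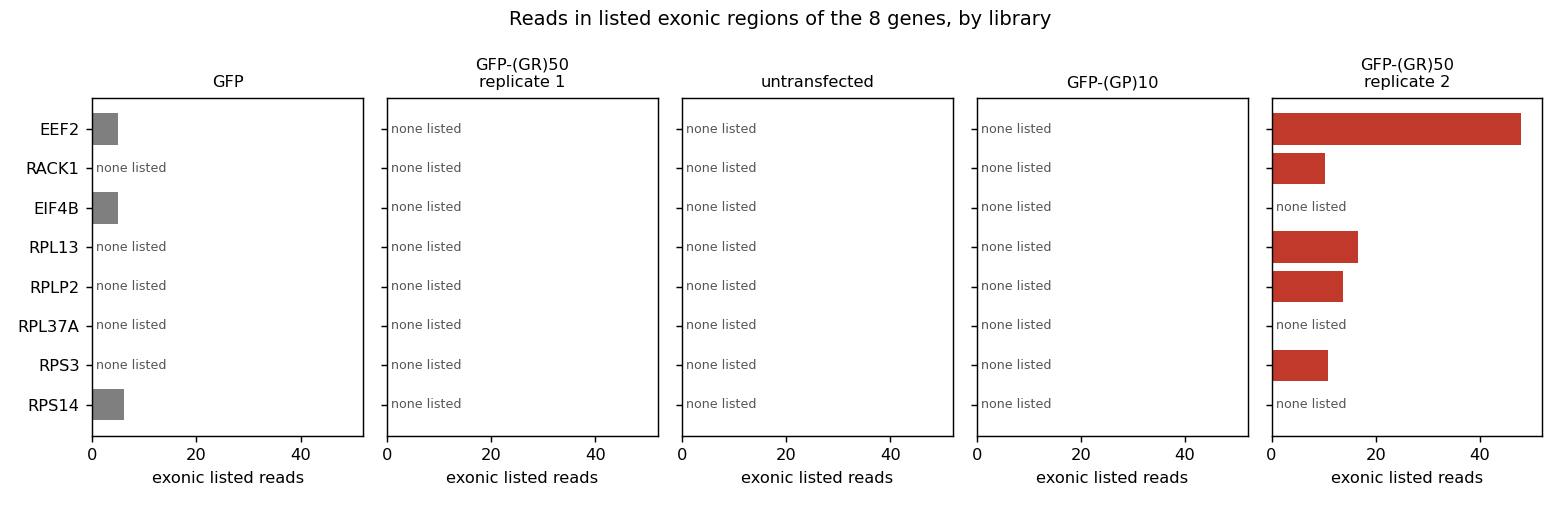
Listed reads summed over the exonic regions of each of the 8 genes (horizontal axis) in each of the 5 libraries (panels). Bars stand for a single library each and have no error bar; "none listed" marks a gene without an exonic region. EEF2 reached 47.92 reads in GFP-(GR)50 replicate 2, and the bars of GFP stand at 5 or 6.

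The share of these exonic regions among reads outside rRNA was 1.42% (1.15 to 1.72) for GFP-(GR)50 replicate 2 and 0.145% (0.0830 to 0.236) for GFP. With only annotated rRNA left out, it was 0.303% (0.246 to 0.368) for GFP-(GR)50 replicate 2 and still 0.145% for GFP. With all rRNA left out, as below, the GFP-(GR)50 libraries averaged 0.709% ± 1.00 (SD, n = 2), a spread larger than the mean, since replicate 1 listed no such region. In experiment 2 the difference was 1.42 percentage points against untransfected cells and against GFP-(GP)10 alike, because both listed none. In experiment 1 it was -0.145 points against GFP. The interval of GFP-(GR)50 replicate 1, 0% to 0.226%, held the share of GFP, but it takes unlisted reads as 0. A single region at the minimum of 5 reads would be 0.306% there, above that interval. Neither an upper limit nor a likeness to GFP is thus read from it. With the intronic region annotated to RPL37A counted as well, the difference of experiment 1 turned to 0.161 points. That region of 5 reads lay 30743 bp past the end of the RefSeq gene, so the turn gives no reading on these mRNAs. At an equal share of reads outside rRNA, the 3 regions of GFP would have held 0.741 to 0.889 reads in GFP-(GR)50 replicate 1. By all listed reads it was 9.25 to 11.1, so whether they could have reached the minimum of 5 depends on the scale.

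The same reads were 0.0739% (0.0600 to 0.0898) of its listed reads and 0.0523% (0.0299 to 0.0849) of those of GFP. Of the reads in all protein-coding exons they were 16.2% (13.3 to 19.3) in GFP-(GR)50 replicate 2 and 18.4% (10.9 to 28.1) in GFP. The ratio between these libraries thus depends on the scale, and they come from different experiments.

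The lists differed in how many genes had an exonic region at all, and the counts of the 8 genes are read beside that. Of 159 names with an exonic region in any list, 56.0% had one in GFP-(GR)50 replicate 2, beside 29.6% for untransfected cells and 8.81% for GFP-(GP)10. In experiment 1 it was 9.43% for GFP and 6.29% for GFP-(GR)50 replicate 1. For replicate 2 against untransfected cells, 5 of 5 genes had a region in GFP-(GR)50 only, beside 63.8% of the 130 names compared, and 0 of 5 in the control only, beside 31.5%. Against GFP-(GP)10, 5 of 5 had a region in GFP-(GR)50 only, beside 86.0% of 100 names, and 0 of 5 in the control only, beside 11.0%. In experiment 1, 3 of 3 genes had a region in GFP only, beside 60.0% of 25 names, and 0 of 3 in GFP-(GR)50 only, beside 40.0%. Since the genes were chosen on these contrasts, nothing further is read from the counts. Over both GFP-(GR)50 lists, 1.26% of the 159 names had an exonic region in each, and none of the 8 genes was among them.

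Whether a region of this size could have been listed elsewhere depends on the reads it is scaled by. At the share of reads outside rRNA that they had in GFP-(GR)50 replicate 2, the 14 regions would have held 7.37 to 16.2 reads in untransfected cells, and all 14 would have reached the minimum of 5. With only annotated rRNA left out they would have held 1.95 to 4.28 reads there, and by all listed reads 0.839 to 1.85, and none would have reached it on either scale. With listed reads scaled by the totals of uniquely mapping reads, 11 of 14 would have reached the minimum. By the totals of uniquely mapping reads outside rRNA they would have held 8.71 to 19.2 reads, and all 14 would have reached it. These 2 scales set listed reads, multimapping ones included, against totals without them, so neither is a share of uniquely mapping reads. On the former scale, fewer than 11 would reach the minimum by uniquely mapping reads alone, since the second RPL13 region had 2.5 of these. In GFP-(GP)10 none would have reached the minimum on any of the 5 scales, with 3.32 reads as the highest value. In GFP-(GR)50 replicate 1 none would have reached it either, with 4.64 reads as the highest. These are expected reads, and a count around 4.64 can reach 5 by sampling alone. The 3 regions of GFP would have held 9.25 to 11.1 reads in GFP-(GR)50 replicate 1 by all listed reads, and 0.741 to 0.889 by reads outside rRNA.

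**Figure D2:**
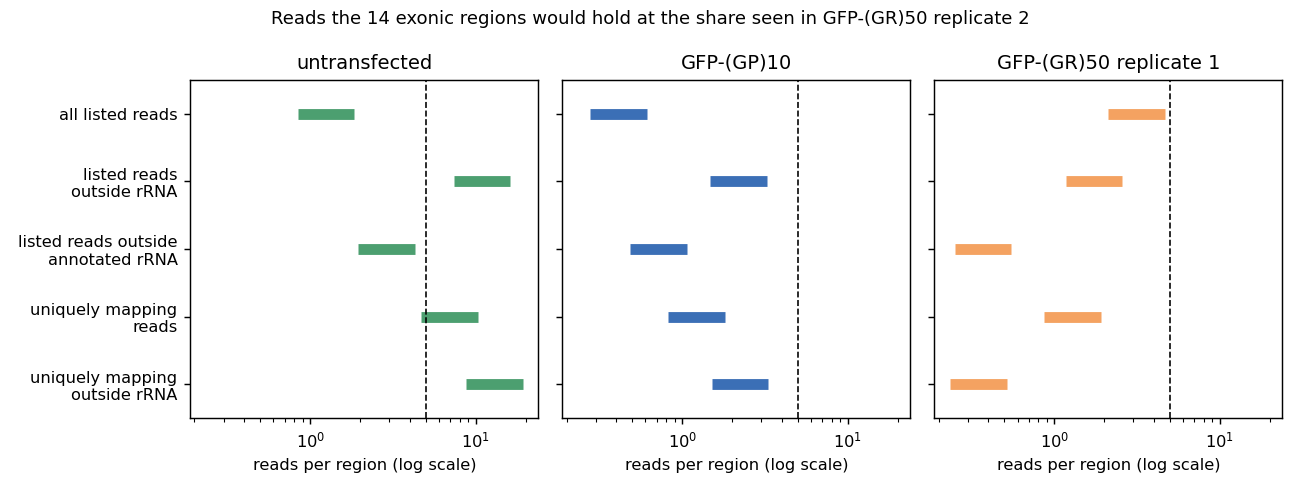
Reads that the 14 exonic regions of GFP-(GR)50 replicate 2 would hold in 3 other libraries (panels), by 5 totals (vertical axis). Listed reads, multimapping ones included, were scaled by the ratio of each total, also where the total counts uniquely mapping reads alone. Bars run from the lowest to the highest of the 14 regions on a log scale, and the dashed line is the minimum of 5 reads. For GFP-(GP)10 and GFP-(GR)50 replicate 1 every bar ends below the line, and in untransfected cells the place of the bar depends on the total.

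EEF2, the GTPase that moves the ribosome along the mRNA by a codon after each peptide bond, led GFP-(GR)50 replicate 2 by summed exonic reads. None of its single regions was the tallest exonic region of that list. It had 6 regions there, on chromosome 19, minus strand, with 47.92 listed reads, the highest sum of the 89 names with an exonic region in that list. RPL13 followed with 16.51 reads and GNAS, which is not among the 8 genes, with 16.06. The share of EEF2 was 0.685% (0.506 to 0.909) in GFP-(GR)50 replicate 2 and 0.0454% (0.0147 to 0.106) in GFP, from different experiments. No region was listed in the other 3 libraries.

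Along EEF2, the region nearest to the 5′ end of the gene, chr19:3982806-3982934, had 5.75 listed reads, and the next, chr19:3982309-3982424, had 7. Further downstream, chr19:3980840-3980975 had 7.17 reads, chr19:3980583-3980698 had 11 and chr19:3979842-3979932 had 7. The region nearest to the 3′ end, chr19:3976285-3976555, had 10 reads over 270 bp. These values lie between 5.75 and 11, so no single stretch dominated. The 5 upstream regions were annotated as exon alone and the last as exon and intron. Together they covered 853 bp, with 56.2 reads per kb. The GFP region, chr19:3980533-3980651 with 5 reads, shared 68 bp with the tallest region of GFP-(GR)50 replicate 2, 57.6% of the former and 59.1% of the latter. In GFP-(GR)50 replicate 2, uniquely mapping reads were 47 of the 47.92 listed.

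RACK1, a scaffold protein on the head of the small ribosomal subunit that binds protein kinase C, had 2 exonic regions, both in GFP-(GR)50 replicate 2, on chromosome 5, minus strand. The upstream region, chr5:181243715-181243904, had 5.25 listed reads over 189 bp, and the downstream one, chr5:181238115-181238239, had 5 over 124 bp. The 5′ edge of the first lay 2 bp after the annotated start, inside the run of 9 pyrimidines printed above. No other region of the 8 genes came this close to a printed start. Both were annotated as exon and intron. The share of RACK1 was 0.147% (0.0686 to 0.263), and both regions lay near the minimum of 5 reads.

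EIF4B, which stimulates the RNA helicase EIF4A during initiation, was listed in GFP alone. Its region on chromosome 12, plus strand, chr12:53040789-53040817, was 28 bp wide with 5 reads, all uniquely mapping, and lay at 96.0% of the gene span from the start. A long noncoding RNA, AC068888.1, is annotated on the opposite strand there.

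Of the large-subunit proteins, RPL13 and RPLP2 had exonic regions, each 2 and each in GFP-(GR)50 replicate 2 alone. RPL13 is a structural protein of the subunit, and RPLP2 is an acidic protein of the flexible stalk that recruits elongation factors. On RPL13 (chromosome 16, plus strand), chr16:89560939-89561153 had 10.26 listed reads and chr16:89561551-89561729 had 6.25. Their sum of 16.51 reads was 0.236% (0.142 to 0.389) of the reads outside rRNA. On RPLP2 (chromosome 11, plus strand), chr11:810233-810297 had 5.50 reads and chr11:812534-812633 had 8.25, a share of 0.197% (0.109 to 0.336). The second RPLP2 region lay at 88.2% of the gene span and also overlapped a simple repeat. Per kb of listed region RPLP2 had 84.4 reads, EEF2 56.2, RPL13 42.1 and RACK1 32.7. With sums between 10.25 and 16.51 reads, the intervals of RPL13, RPLP2 and RACK1 overlapped.

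RPL13 depended most on multimapping reads. Uniquely mapping reads were 57.5% of its listed reads, against 98.1% for EEF2, 92.7% for RACK1, 90.9% for RPLP2 and 78.8% for RPS3. Its second region had 2.5 uniquely mapping reads of 6.25. Ribosomal protein genes have many processed pseudogenes, copies of the spliced message elsewhere in the genome. A pseudogene of RPL13, RPL13P12 on chromosome 17 (chr17:17383433-17383822), was listed in the same library with 7.5 reads over 389 bp, none of them uniquely mapping. Reads of RPL13 and of such copies cannot be separated here, so its listed value is uncertain.

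RPL37A had a single region, in GFP-(GR)50 replicate 1, at chr2:216534830-216534870 on the plus strand, with 5 uniquely mapping reads. The deposited annotation places it in an intron of RPL37A. It lay 30743 bp past the end of the RefSeq gene, so it gives no reading on the RPL37A mRNA. It was the only region of the 8 genes in that library.

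Of the small-subunit proteins, RPS3, which lines the entry channel of the mRNA, had 2 exonic regions in GFP-(GR)50 replicate 2, on chromosome 11, plus strand. They were chr11:75404019-75404207 with 5.28 listed reads and chr11:75405613-75405658 with 5.50. Their share was 0.154% (0.0785 to 0.281). RPS14, a protein of the platform of the subunit, was listed in GFP alone, at chr5:150446810-150446846 on the minus strand, with 6 uniquely mapping reads, a share of 0.0544% (0.0200 to 0.118). RPS3 and RPS14 thus appeared in different libraries of different experiments, each within 1 read of the minimum in every exonic region.

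**Figure D3:**
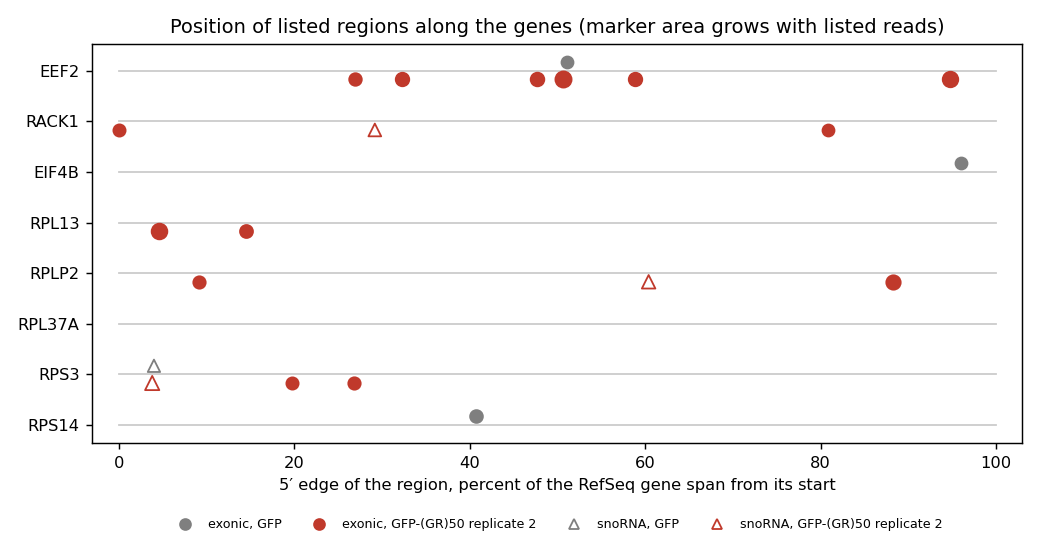
Position of the 5′ edge of each exonic region (filled circles) and of each snoRNA region (open triangles) along the 8 genes, as a percent of the RefSeq gene span from its start, in GFP (grey) and GFP-(GR)50 replicate 2 (red). Marker area grows with listed reads. The region of RPL37A lies past the end of its gene and is not drawn. EEF2 carries 6 regions from 26.9% to 94.7% of its span, and the first RACK1 region sits at the start.

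The 14 exonic regions of GFP-(GR)50 replicate 2 can be set beside the other exonic regions of that list. Their median width was 126 bp (45 to 270), against 57.0 bp (28 to 470) over the other 82 exonic regions. Wider than the read length of 110 nt were 10 of 14 (71.4%) against 22 of 82 (26.8%). Median reads were close, at 6.62 against 5.25, so reads per kb were lower, at a median of 50.5 against 99.1. Regions of 1 gene share their source, and no test was made of these differences. In the GFP list the 3 regions were 28, 36 and 118 bp wide.

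**Figure D4:**
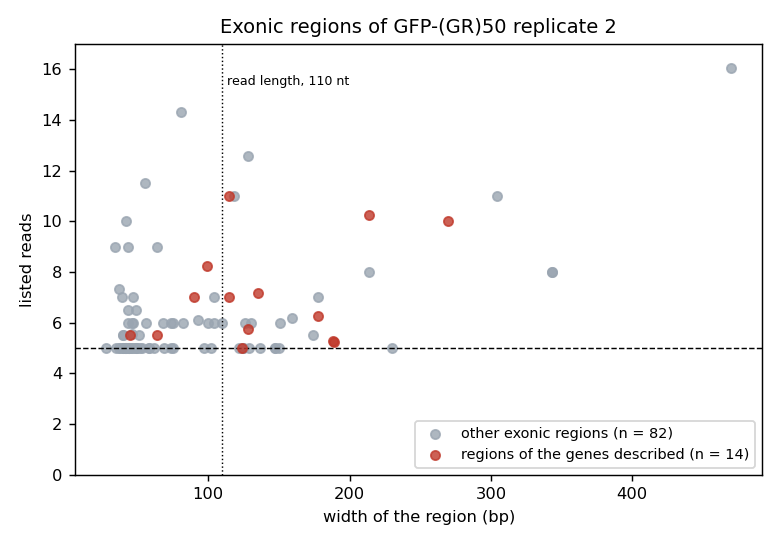
Width (horizontal axis) and listed reads (vertical axis) of the 96 exonic regions of GFP-(GR)50 replicate 2, each point a region: the 14 of the genes described here in red, the other 82 in grey. The dashed line is the minimum of 5 reads, and the dotted line is the read length of 110 nt. Of the red points 10 lie to the right of the dotted line, and all lie at or below 11 reads.

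Several of these genes had more than 1 exonic region. In GFP-(GR)50 replicate 2, 11 of 89 names (12.4%) had 2 or more exonic regions, and 5 of these 11 were EEF2, RACK1, RPL13, RPLP2 and RPS3. The others were ACTG1, DDX17, WDR90, ARPC4-TTLL3, and EEF1G with the overlapping gene name AP002990.1. EEF2 had 6 regions and every other such name 2. None of the 14 regions lay opposite a repeat element, against 17 of the other 82 (20.7%). The part annotated as exon and intron was 8 of 14 (57.1%) against 34 of 82 (41.5%).

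A detail of the deposited counts touches these genes. The column of uniquely mapping reads held 6 values that are not whole, all of them in GFP-(GR)50 replicate 2, and all 6 lay on exonic regions of EEF2 (2 regions), RACK1, RPL13, RPLP2 and RPS3. On EEF2 they were 6.5 and 5.5, in neighbouring regions 382 bp apart, and summed to 12. Neither the labels nor the file headers say how these values arose.

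The other genes of the pathway are read beside all protein-coding symbols in RefSeq, of which 0.374% had an exonic region in GFP-(GR)50 replicate 2 and 0.708% in any list. Of the 79 cytosolic ribosomal proteins, 6 (7.59%) had an exonic region in GFP-(GR)50 replicate 2, 1 in GFP and none in the other libraries. Apart from RPL13, RPLP2 and RPS3 these were RPL8 with 12.58 listed reads, RPL10 with 6 and RPS24 with 5. Of 43 translation factors, 3 (6.98%) were listed in GFP-(GR)50 replicate 2, 2 in the GFP list and 1 with GFP-(GP)10. Beside EEF2 and RACK1, EEF1G, a subunit of the factor that reloads EEF1A with GTP, had 15.17 reads in GFP-(GR)50 replicate 2, and EIF1, which guards start codon choice, had 5 in GFP-(GP)10. In any list it was 7 of 79 (8.86%) and 5 of 43 (11.6%), the genes described here included. The genes described here, 5 of the 79 and 3 of the 43, were chosen on the same lists, which raises these percentages. Apart from them, 3 ribosomal proteins and 1 translation factor were listed in GFP-(GR)50 replicate 2.

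A list of 33 abundant mRNAs outside translation served as a comparison: 3 (9.09%) had an exonic region in GFP-(GR)50 replicate 2, 2 had one with untransfected cells, 1 with GFP-(GP)10 and none in experiment 1. In any list it was 4 of 33 (12.1%). The cytoskeletal actin ACTG1 had 5 reads with GFP-(GP)10 against 12 with GFP-(GR)50 replicate 2. The glycolytic enzyme ENO1 had 7 reads in untransfected cells against 5 with GFP-(GR)50 replicate 2. PKM, also glycolytic, had 5 in GFP-(GR)50 replicate 2. PGK1, of the same pathway, had 5 in untransfected cells. The levels of these mRNAs in the cells were not measured, and their part in the result was not tested.

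By the summed difference in log2(1 + exonic reads per 1000 reads outside rRNA) over the 5 libraries, the names nearest to the mean of the 8 genes were BSG, HIST2H4A and HIST2H4B, each at a distance of 0.230 with 8 reads in GFP-(GR)50 replicate 2. ARPC4 and HNRNPU followed, at 0.289 with 9 reads. All 5 were listed in GFP-(GR)50 replicate 2 alone, and HIST2H4A and HIST2H4B are near-identical histone genes that share reads.

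RefSeq places 7 snoRNA genes inside 5 of these genes, and 3 of the 7 had a region in GFP-(GR)50 replicate 2, 1 in GFP and none in the other libraries. The share of all snoRNA genes with a region is not given here, so nothing is read from the 3 of 7. SNORD15A, in RPS3, was listed in both GFP and GFP-(GR)50 replicate 2, with 5.5 reads in the former (chr11:75400437-75400538) and 8 in the latter (chr11:75400390-75400498), the region in GFP without the first bases of the snoRNA and the other without the last. SNORD96A, in RACK1, had 6 reads at chr5:181241816-181241858, and SNORA52, in RPLP2, had 7 at chr11:811725-811756, both in GFP-(GR)50 replicate 2. The remaining 4, SNORD37 in EEF2, SNORD95 in RACK1, SNORD68 in RPL13 and SNORD15B in RPS3, had no listed region. SnoRNA regions of any host numbered 13 in GFP-(GR)50 replicate 2 and 11 in GFP. Untransfected cells and GFP-(GP)10 had 5 each, and GFP-(GR)50 replicate 1 had 3.

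The hosted snoRNAs and the exons of their hosts were listed side by side in GFP-(GR)50 replicate 2, where RACK1, RPLP2 and RPS3 each had 1 snoRNA region beside 2 exonic regions. In GFP the snoRNA of RPS3 was listed without any exonic region of RPS3. Some other ribosomal protein genes showed hosted snoRNAs as well. SNORA6 in RPSA had 10 reads and SNORD34 in RPL13A 6.29, both in GFP-(GR)50 replicate 2, and SNORA3A in RPL27A had 5 in GFP. A region over a snoRNA can hold reads of the mature snoRNA or of the host transcript, and the counts do not separate them.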

How the data were processed

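CLIP-Seq was analysed in 5 HEK-293 libraries, crosslinked at 100 mJ/cm2 and 254 nm and read from a single end over 110 nt, per the labels. The submitters' processing notes name featureCounts 2.0.2, bedtools 2.30.0, UMI-tools 1.1.2 and Novoalign 4.03.03, with GRCh38.p13 and hg38 as builds. Their roles and how regions were called and filtered are not stated there. Per the file headers, the deposited columns are the count of uniquely mapping reads and a count that adds multimapping reads scaled by the authors. The latter was treated as an expected count of the deposited lists, as were the unique reads of GFP-(GR)50 replicate 2, since 6 of their values are not whole. Neither is normalised for depth.

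Coordinates are as deposited. RefSeq genes and starts are of GRCh38.p14, whose chromosomes are those of hg38; 171 of 174 exonic names with a RefSeq symbol overlapped that gene. rRNA was every region annotated as such, plus unannotated regions of an extra contig at least 100 bp wide whose width and reads were those of an annotated rRNA region in that library, within 5 bp and within 5% or 2 reads. Names were split at commas. Shares were computed with Python 3.11.15 and SciPy 1.17.1 on reads rounded to whole numbers. The classing of regions, the matching of names and the computing of a share were tested on a small made-up list with known answers. Named genes were all 8 genes, up to 5 others per gene list by number of libraries and reads, and the 5 nearest names; GNAS and the names with several exonic regions were named after their values were seen. The genes, lists and rules were chosen with earlier results of these data known.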

Additional observations from a re-analysis of the deposited data

Results flagged for a closer look

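The share of reads outside rRNA in listed exonic regions of these genes differed in sign between the experiments. GFP-(GR)50 minus control was -0.145 percentage points against GFP in experiment 1, and 1.42 points against untransfected cells and 1.42 points against GFP-(GP)10 in experiment 2. The difference between the experiments was not tested. Each sign comes from a single GFP-(GR)50 library, and the 2 comparisons of experiment 2 share theirs. That of experiment 1 sets no listed region against 3 in GFP. At an equal share of reads outside rRNA those 3 would have held 0.741 to 0.889 reads in GFP-(GR)50 replicate 1, below the minimum of 5. By all listed reads it was 9.25 to 11.1, so a difference in direction cannot be read from these values. With only annotated rRNA left out, the values of experiment 2 were 0.303 points. The reads outside rRNA numbered 1634 in GFP-(GR)50 replicate 1 and 6995 in replicate 2, and a region of 5 reads is 0.306% of the former and 0.0715% of the latter.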

How the results depend on the processing

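Differences in the exonic read share are GFP-(GR)50 minus control, in percentage points, and those of replicate 2 hold against both of its controls. With uniquely mapping reads they were -0.276 in experiment 1 and 1.81 in experiment 2, over all listed reads -0.0523 and 0.0739, and over the reads of all exonic regions -18.4 and 16.2. With any same-strand row of a gene, snoRNA rows apart, that of experiment 1 reversed to 0.161 and GFP-(GR)50 replicate 1 listed 1 gene. Both changes come from the region past the end of RPL37A, which gives no reading on its mRNA. With at least 10 reads per region the differences were 0 and 0.846, and the genes listed fell to 0 in GFP and 2 in GFP-(GR)50 replicate 2. With only the 183 regions of most reads kept in every library, both counts were 0. With annotated rRNA alone left out, an alternative chosen after seeing the data, the difference of replicate 2 was 0.303. The mean share of the GFP-(GR)50 libraries ran from 0% without replicate 2 to 1.42% without replicate 1. Of 48 alternatives, 14 set 0 against 0 and 2 left out a replicate of a mean whose SD exceeds it, so neither kind bears on stability. Of the other 32, 12 left the value within the interval or within 1.5 times the count, 19 moved it and 1 reversed it. The interval used for a difference was that of the share above 0 alone. The alternatives of replicate 2 enter this tally once per control with equal values. Several others change the reads that a share is taken of, and so its scale. The tally is thus no measure of stability, and the cause of the moves was not tested. No paired analysis was possible because no result comes from a test, and each control, matched to GFP-(GR)50 by experiment, is a single library. With 5 to 11 reads per region, the minimum of 5 reads limits what can be compared.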
